A study of Drosophila melanogaster with 6 samples.

Results

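The genes described here encode the cell surface receptors for Wnt ligands in *Drosophila*: the Frizzled receptors fz, fz2, fz3 and fz4, the LRP co-receptor arr (arrow), the Ryk-type receptors drl (derailed), dnt (doughnut) and Drl-2, and the PTK7-like receptor otk (off-track). They were chosen by name, as a family, and all 9 were found among the 17411 genes with a deposited expression value. Leg imaginal discs of sr-gal4>UASGFP animals were dissected at 0 h after puparium formation (APF), 250 to 300 discs to a sample, and dissociated with collagenase and papain. Cells were then sorted by FACS into GFP+ cells (3 libraries) and into control cells, called input here (3 libraries). The driver sr-gal4 is an enhancer trap of stripe (sr), whose transcription factor sets tendon fate, and both groups carry it together with the GFP reporter (given in the methods as UAS-Lifeactin.GFP, with the driver chromosome over the TM6b balancer). GFP is thus read from the driver line and not from Stripe itself. Input cells were sorted first and without regard to fluorescence, so they stand for the whole disc, GFP+ cells included, and sorting order goes with the group.

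Wnt proteins are secreted, lipid-modified ligands. In the canonical branch a Wnt such as Wingless (Wg) joins a Frizzled to Arrow, which recruits Dishevelled and Axin and lets β-catenin (Armadillo) accumulate and act in the nucleus. In the leg disc Wg is known as the ventral signal that patterns the limb together with Dpp. Frizzled also works without Arrow, with Flamingo and Van Gogh, to set planar cell polarity. The Ryk-type receptors bind Wnts through a WIF domain and carry a kinase domain thought to be inactive; they are best known as receptors of Wnt5 in axon guidance, and Drl and Dnt are known to help embryonic muscles choose their attachment sites on tendon cells.

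The deposited expression unit was the FPKM, a fragment count scaled by transcript length and by library size, with 1 value for each group and a lower and an upper confidence bound. The confidence level of the bounds is not given in the sources used here. Values of single libraries are not analysed here, which leaves no spread to test against, and no p-value is given. Throughout, a gene is called lower or higher in GFP+ cells when its FPKM differed by at least 1.5-fold and the bounds of the groups did not overlap. By this rule 5 of the 9 receptors were lower in GFP+ cells, 1 was higher and 3 were neither. Of 9199 genes with an FPKM of at least 1 in either group, 12.7% were called lower and 7.99% higher.

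Most Wnt receptors were expressed in GFP+ cells. In GFP+ cells 8 of the 9 receptors had an FPKM above 10, as they did in input cells, and Drl-2 alone lay below the others by far. Of the 9199 genes with an FPKM of at least 1 in either group, 6391 reached 10 in either group. This background is looser than the receptor counts, which were taken in each group alone. The median of all 9199 genes in GFP+ cells was 17.0, and fz4 (18.3) and dnt (17.7) lay close to it. fz2 had the highest level of the family in both groups. In GFP+ cells it was followed by otk, arr, fz3, fz, drl, fz4 and dnt, and Drl-2 came last. The bounds of fz2 and otk did not overlap, nor did those of drl and fz4 or of dnt and Drl-2; all other neighbours in this order had overlapping bounds. In input cells the order was fz2, arr, otk, fz, drl, fz3, dnt, fz4 and Drl-2, and the neighbours with separate bounds were fz2 and arr, fz and drl, and fz4 and Drl-2. fz, arr, drl and dnt thus stood lower in the order of GFP+ cells than in that of input cells, while fz3, fz4 and otk stood higher.

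**Figure D1:**
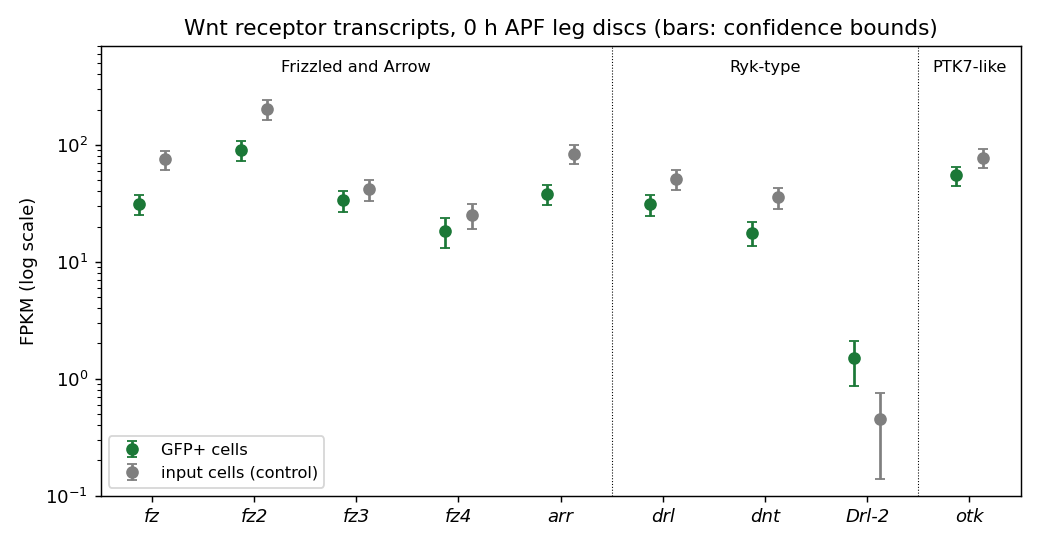
FPKM of the 9 receptors (log axis) in GFP+ cells and in input cells, with the deposited confidence bounds as bars; 1 value per group from 3 libraries each. fz2 is the highest in both groups (89.7 and 203), and Drl-2 is the only receptor whose GFP+ value (1.49) lies above its input value (0.449).

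Among the canonical receptors, fz, fz2 and arr were lower in GFP+ cells. fz, the founding Frizzled that acts in both canonical and planar polarity signalling, was at 31.1 FPKM (bounds 24.9 to 37.3) in GFP+ cells against 75.1 (61.0 to 89.1) in the input. Its ratio of 0.414 was the smallest of the family, 2.42-fold lower in GFP+ cells. fz2, which acts redundantly with fz as a receptor of Wg, had 89.7 (72.1 to 107) and 203 (162 to 244), a ratio of 0.442. arr, the co-receptor that canonical signalling requires, had 37.8 (30.7 to 44.9) and 84.2 (68.3 to 100.1), a ratio of 0.449. These 3 genes had nearly the same ratio, and in each the GFP+ value lay below the lower bound of the input. Of all 9199 genes, 7.44% had a ratio at or below that of fz, 8.62% at or below that of fz2 and 8.95% at or below that of arr. fz2 had 2.37 times the FPKM of arr in GFP+ cells and 2.41 times in input cells.

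The other Frizzled genes differed less between the groups. fz3, whose transcription is known to be raised by Wg in the wing disc, where that of fz2 is lowered, was at 33.5 FPKM (26.5 to 40.4) in GFP+ cells against 41.8 (33.3 to 50.2) in the input, a ratio of 0.801. fz4, a less studied Frizzled, had 18.3 (13.2 to 23.5) and 25.2 (19.0 to 31.3), a ratio of 0.727. Both genes fell short of 1.5-fold (1.25-fold for fz3 and 1.38-fold for fz4) and had overlapping bounds between the groups, so neither was called. arr had 1.13 times the FPKM of fz3 in GFP+ cells against 2.02 times in the input, unlike its proportion to fz2. The ranges that the bounds allow for the ratios of arr and fz3 overlapped, however. Within the Frizzled genes, fz2 made up 52.0% of the summed FPKM in GFP+ cells against 58.8% in the input, and fz made up 18.0% and 21.8%. fz3 made up 19.4% and 12.1%, and fz4 10.6% and 7.30%. The 4 genes summed to 173 FPKM in GFP+ cells against 345 in the input. By value fz3 took the place of fz as the second largest component in GFP+ cells, where the bounds of the 2 genes overlapped. Exons of fz4 overlap those of CG8300 on the opposite strand, which had an FPKM of 50.6 and 38.5. Whether the counting used strand is not given in the sources used here, so reads of these 2 genes may not be told apart.

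The Ryk-type receptors were not uniform: drl and dnt were lower in GFP+ cells and Drl-2 was higher. drl was at 31.0 FPKM (24.8 to 37.1) in GFP+ cells against 50.9 (41.2 to 60.6) in the input, a ratio of 0.608. dnt had 17.7 (13.5 to 22.0) and 35.5 (28.2 to 42.9), a ratio of 0.499. Both genes kept their bounds apart, drl by a smaller margin than dnt. Drl-2, known in *Drosophila* from the patterning of the antennal lobe together with Drl and Wnt5, had 1.49 (0.871 to 2.11) and 0.449 (0.140 to 0.759), a ratio of 3.31. Drl-2 reached the minimum FPKM of 1 in GFP+ cells alone, the group where it was higher. Its level was far below that of the other Ryk-type genes, and its bounds, though separate, were wide: they allow a ratio from 1.15 to 15.1. The mean normalized count of Drl-2 over all 6 libraries was 182, against 1773 to 21353 for the other receptors. Drl-2 made up 2.97% of the summed FPKM of the Ryk-type genes in GFP+ cells against 0.517% in the input, and drl had 20.8 times its FPKM in GFP+ cells and 113 times in input cells. With the FPKM of each group rescaled to the same sum, Drl-2 kept a ratio above 1 but its bounds overlapped, and with a pseudocount of 1 its ratio was 1.72.

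otk encodes a transmembrane protein related to vertebrate PTK7, which can bind Frizzled and Wnt proteins and also carries a kinase domain thought to be inactive. It was at 54.8 FPKM (44.6 to 65.0) in GFP+ cells against 77.6 (63.2 to 92.1) in the input, a ratio of 0.706. It was 1.42-fold lower, short of 1.5-fold, and the upper bound of the GFP+ value lay just above the lower bound of the input. For both reasons otk was not called. otk2, its near neighbour 3299 bp away, which acts with otk, had 33.3 and 37.0, a ratio of 0.899 with overlapping bounds.

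Canonical and Ryk-type receptors could not be set apart by these ratios. The 4 Frizzled genes together had 0.500 times their input FPKM in GFP+ cells, and 0.490 times with arr included. The 3 Ryk-type genes had 0.578 times. Drl-2 made up 2.97% of the Ryk-type sum in GFP+ cells, so that value is mainly that of drl and dnt. The summed FPKM of the Frizzled genes was 3.44 times that of the Ryk-type genes in GFP+ cells and 3.97 times in input cells. When each ratio was given the range that its bounds allow, 6 of the 36 pairs of receptors had ranges that did not overlap. Drl-2 was a member of all 6 pairs. The ratios of the other 8 receptors, from 0.414 for fz to 0.801 for fz3, were not separated from each other by their bounds.

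All 9 receptor genes have their place in the dm6 assembly, where both fz and fz2 lie on chromosome 3L, fz from 14274343 to 14368639 on the plus strand and fz2 from 19140975 to 19235373 on the minus strand. fz3 lies on chromosome X from 769945 to 784222 (plus strand) and fz4 from 7106272 to 7110321 (minus strand). arr, Drl-2 and otk lie on the minus strand of chromosome 2R, arr from 13453640 to 13483229, Drl-2 from 13055246 to 13079539 and otk from 12001473 to 12019846. drl and dnt are neighbours on chromosome 2L, drl from 19190342 to 19208621 (plus strand) and dnt from 19338669 to 19363227 (minus strand), with 130047 bp between them. The values are sums over whole genes: arr has 1 annotated transcript, of 7 exons, and fz2 has 8, of 2 to 7 exons, and the share of each transcript was not measured. The receptors have long transcripts, from a median annotated length of 2304 nt in fz3 to 6024 nt in arr, against 1804 nt for all genes with an FPKM of at least 1 in either group.

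Genes with long transcripts tended to have lower ratios. Across 8870 genes, log2 ratio and median transcript length were correlated (Spearman's rho = -0.43). This is a correlation across genes of the same libraries, which are not independent replicates. Among 2964 genes as long as the receptors, 24% were called lower and 8.23% higher, so the 5 of 9 receptors are to be read against the larger of these shares too. Relative to the length trend, fz had a ratio of 0.580 and dnt of 0.573, and these 2 receptors were still called lower. fz2 came to 0.667, just short of 1.5-fold, drl to 0.763 and arr to 0.771, and none of these was called. fz3 came to 0.859, fz4 to 1.02 and otk to 1.09, so the last pair lay above 1. Drl-2 came to 5.42, against a trend of 0.612 at its length, and it was still called higher.

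**Figure D2:**
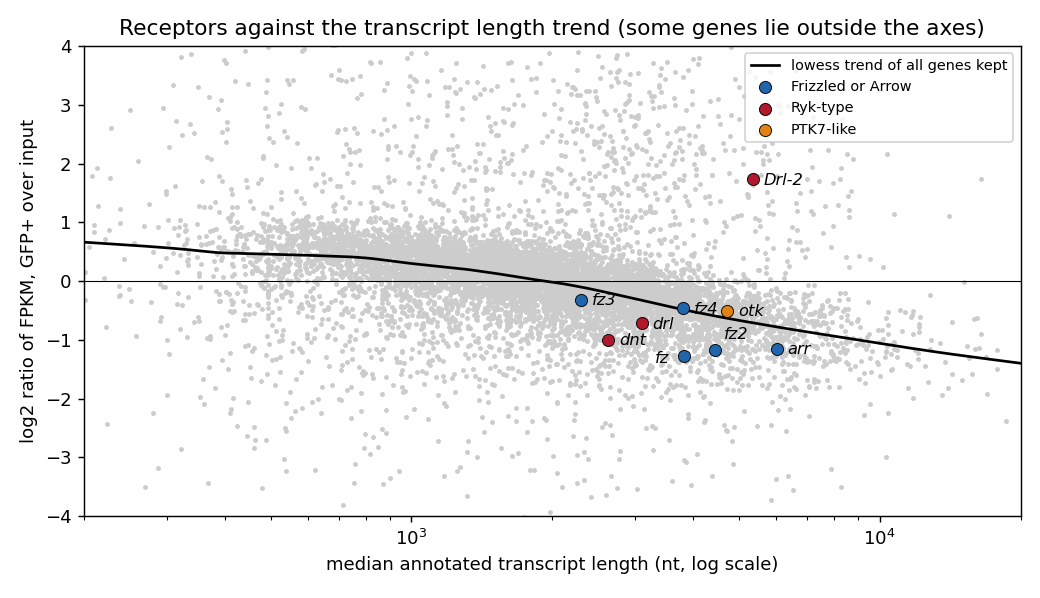
Log2 ratio of FPKM (GFP+ over input) against median annotated transcript length (log axis) for all genes kept, in grey, with their lowess trend as a black line and the 9 receptors in colour. The receptors lie where the trend is below 0; fz and dnt lie furthest below it, fz4 and otk lie on or slightly above it, and Drl-2 lies far above it.

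The calls also moved with the scale. The FPKM of all genes summed to 926347 for GFP+ cells against 689351 for the input, while the median ratio of the 9199 genes was 1.02. As deposited, the receptors are therefore compared with a typical gene that did not differ. Rescaled to a common sum, as TPM values are,, the median log2 ratio of all genes moved to -0.40, and 8 receptors were called lower and 0 higher, with 24.0% of all genes called lower and 4.34% higher. The ratio of each receptor to another within a group does not depend on this scale.

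**Figure D3:**
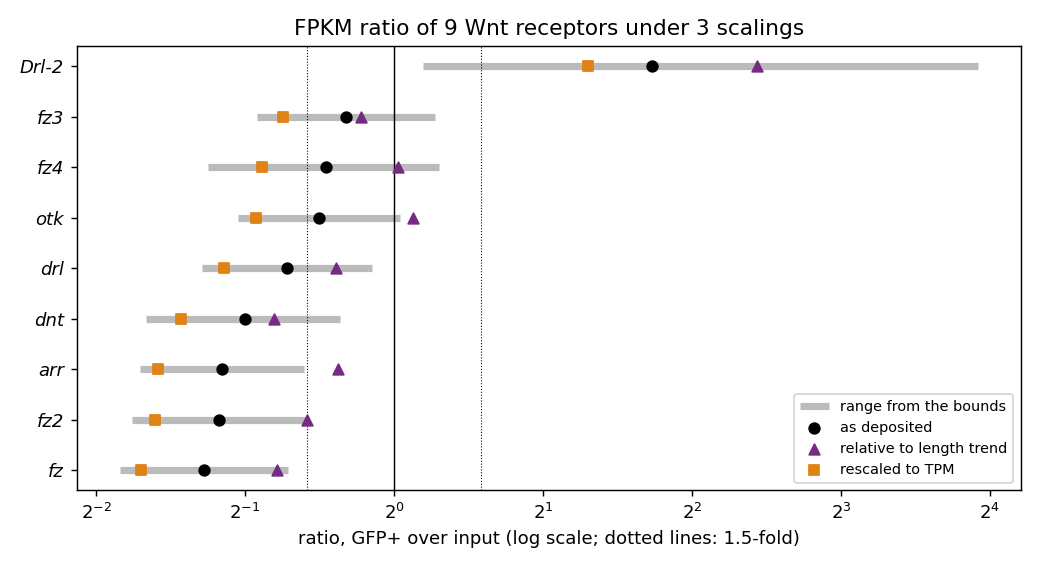
Ratio of each receptor, GFP+ over input (log axis), as deposited (circles), relative to the length trend (triangles) and rescaled to TPM (squares); grey bars give the range that the confidence bounds allow and dotted lines mark 1.5-fold. The order of the circles runs from fz (0.414) to Drl-2 (3.31), and Drl-2 is the only receptor above 1 under all 3 scalings.

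The FPKM could be set beside the counted reads of the other table. The mean normalized count of a gene, divided by its mean FPKM and its transcript length in kb, was 24.5 (fz) to 35.1 (Drl-2) over the 9 receptors. The median over all genes was 27.7, with 1.01 and 36.2 at percentiles 5 and 95. All 9 receptors lay between these percentiles, as most genes do by definition, and Drl-2 lay close to the upper one. The bounds spanned 18.6% (otk) to 28.1% (fz4) of the FPKM to either side in GFP+ cells for the 8 receptors above 10 FPKM. For Drl-2 they spanned 41.6%, and its input value had 69.0%.

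Other genes of the pathway, taken from lists of ligands, partners and targets, were often called lower in GFP+ cells too. Of 44 such genes, 42 had an FPKM of at least 1 in either group. Of these, 22 were called lower, 1 was higher and 19 were neither. Among all genes 12.7% were called lower and 7.99% higher. Among genes as long as the receptors the shares were 24% and 8.23%. Ratios are as deposited unless said otherwise. The median log2 ratio of the 42 pathway genes was -0.61, against -0.72 for the 9 receptors and 0.02 for all genes. Relative to the length trend these medians were -0.17, -0.38 and 0.05. The receptors thus stood with the rest of the pathway in direction, and both medians moved towards 0 once length was taken into account.

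The ligands did not all go the same way as their receptors. Wnt5, the ligand of the Ryk-type receptors, was at 33.5 FPKM (27.2 to 39.9) in GFP+ cells against 50.5 (41.0 to 60.0) in the input, a ratio of 0.663 beside the 0.608 of drl. Relative to the length trend its ratio was 0.944. wg, the main ligand of fz and fz2, had 66.0 (53.5 to 78.5) and 58.8 (47.6 to 70.0), a ratio of 1.12 with overlapping bounds. Wnt6, which neighbours wg in the genome, had 64.7 and 43.0, a ratio of 1.503, and was the 1 pathway gene called higher. Rescaled to TPM the ratio of Wnt6 was 1.12, short of 1.5-fold, and that of wg was 0.835. Wnt4, another ligand, had the smallest ratio among the 5 ligands with an FPKM of at least 1, 0.433, with 10.8 and 25.0. Of these ligands 1 was higher, 2 were lower and 2 were neither, and of the 9 receptors 5 were lower. Among all genes 7.99% were called higher and 12.7% lower. With 5 ligands, these counts do not set ligands apart from receptors. Among genes for ligand release, por, which acylates Wnts, had a ratio of 1.21, and Notum, which removes the lipid, had 5.89 and 13.03 (ratio 0.452, called lower); 3 of the 4 genes of this list were neither.

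Among other surface proteins, dally, a glypican that binds Wg, was lower, at 53.1 FPKM in GFP+ cells against 102 in the input, and its ratio of 0.518 came to 0.741, short of 1.5-fold, relative to the length trend. Ror, a receptor tyrosine kinase with a Frizzled-like domain, had 7.53 (3.01 to 12.1) and 2.52 (0 to 5.10), a ratio of 2.99 with overlapping bounds. Of 7 genes in this list 2 were lower and 5 were neither. Among all genes 12.7% were called lower, and among genes as long as the receptors 24% were. Nrk, a receptor kinase related to Ror, had a ratio of 2.36, also with overlapping bounds. Of Ror, Nrk and Drl-2, all with ratios above 2, Drl-2 had the lowest FPKM, and the bounds as deposited separated the groups in Drl-2 alone. Rescaled to TPM, the bounds of Drl-2 overlapped too.

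Downstream of the receptors, dsh, the adaptor that binds Frizzled, was at 36.6 FPKM in GFP+ cells against 36.8 in the input, a ratio of 0.994. arm, the fly β-catenin, had 572 and 492, a ratio of 1.16. nej, the co-activator CBP, had the smallest ratio of this list as deposited, 0.262, with 7.94 and 30.2. Relative to the length trend nej came to 0.611, and sgg, at 0.484, was then the smallest of those with a known length. Of 16 transduction genes 10 were lower and 6 were neither, beside 12.7% of all genes and 24% of genes as long as the receptors called lower. Their median log2 ratio was -0.70, and -0.19 relative to the length trend. As deposited, the level of dsh, unlike that of fz, fz2 and arr, was close to the input. Of the 5 planar polarity genes, dsh included, 3 were lower; stan (Flamingo), the cadherin that pairs with Frizzled, had 19.2 and 38.2, a ratio of 0.502. Relative to the length trend stan had a ratio of 1.15, and the median log2 ratio of the planar polarity genes turned from -0.63 to 0.18. The Src kinases, proposed partners of Ryk-type receptors, had ratios of 0.671 (Src64B) and 0.728 (Src42A) and were not called. All 6 genes listed as targets or feedback genes of Wg in discs were lower, from H15, a ventral T-box gene, with 24.3 and 43.3, to dac, an intermediate leg gene, with 36.9 and 121. Their median log2 ratio was -1.29, and -0.86 relative to the length trend. dac and H15 are also patterned along the leg by other signals, so their list is not a readout of Wg alone.

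**Figure D4:**
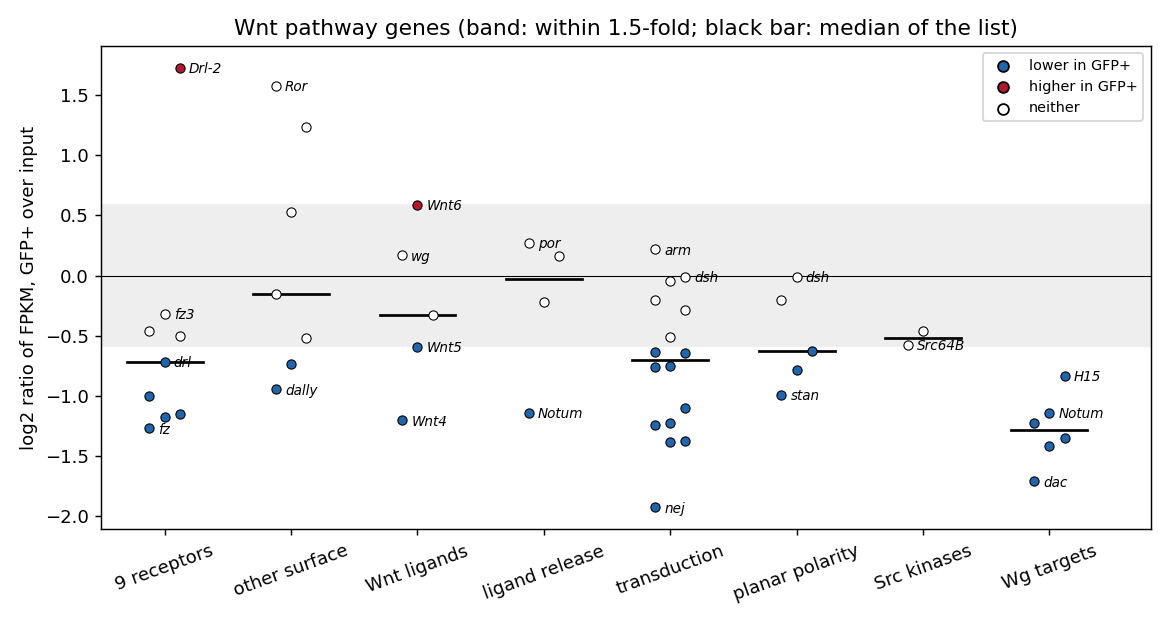
Log2 ratio of FPKM (GFP+ over input) of the 9 receptors and of the other pathway genes, by list; filled points were called lower (blue) or higher (red), open points were neither, the grey band spans 1.5-fold and black bars are medians. Drl-2 and Wnt6 are the called points above 0, and all 6 Wg targets lie below the band.

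Markers of other cell types differed between the groups too. The 7 myoblast markers were all called lower, with a summed FPKM of 16.9 for GFP+ cells against 183 for the input and ratios from 0.0532 (Him) to 0.137 (Mef2). twi, which defines these adepithelial cells, was at 2.56 and 29.0. The lower levels of fz, fz2, arr, drl and dnt go with these lower myoblast markers, whose part in them was not tested. In bulk samples, fewer cells that express a gene and less RNA in each cell cannot be told apart. The epithelial markers had a summed FPKM of 515 and 578; shg and crb were called lower, with ratios of 0.938 and 0.956 relative to the length trend, and Fas3 and cora were not called. Of 3 trachea markers 2 reached an FPKM of 1 and were called lower, among them trh (7.77 against 24.2), and the 4 hemocyte markers were under 1 in both groups, with eater listed at 0 in GFP+ cells.

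Some neuronal genes were higher in GFP+ cells, as Drl-2 was. nSyb, a synaptic vesicle protein, was at 13.7 FPKM against 2.29 in the input, and Syt1, the calcium sensor of vesicle release, had 4.27 and 1.66; both were called higher. elav, the defining neuronal marker, had 10.1 and 18.6 with overlapping bounds, and brp and para were near or below 1 in both groups. The summed FPKM of the 5 neuronal markers was 29.5 and 23.6. The part of neurons in the level of Drl-2 was not tested. Of the glial markers, repo was at 0.648 and 1.70 and none of the 4 was called. The labelled tissue had its defining markers: sr, the gene whose driver marks the sorted cells, had 54.5 and 6.59, Tsp had 345 and 59.0 and Lrt had 42.4 and 14.0, while mys and if were not called. shot was called lower with a ratio of 0.445, which turned to 1.13 relative to the length trend.

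**Figure D5:**
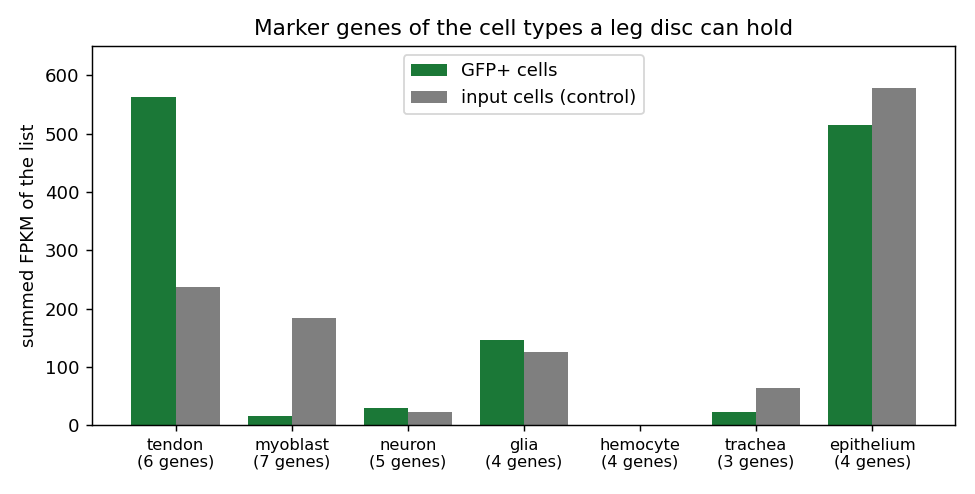
Summed FPKM of marker lists of cell types in GFP+ cells and in input cells (linear axis from 0; 1 value per group, no error). The myoblast sum is 16.9 against 183, and the epithelial sum is 515 against 578.

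The genes nearest to fz in FPKM over the 2 groups were sty, a feedback inhibitor of receptor tyrosine kinase signalling (30.4 and 72.5), tou (32.0 and 71.5) and Oatp74D, an ecdysone importer (30.7 and 79.5). Those nearest to Drl-2 were CG15270 (1.54 and 0.442), RSG7 (1.45 and 0.462) and CG12984 (1.46 and 0.470). Nearness was measured as the distance in log2 FPKM over 2 values a gene, which many genes share by having a like level and ratio.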

How the data were processed

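Single-end reads came from mRNA captured with oligo-dT, in 3 libraries of GFP+ cells and 3 of input cells; the methods describe input and GFP+ cells sorted in turn after each dissociation, and the values per group used here allow no pairing. Per the labels, the authors used Trimmomatic 0.32, Bowtie2 2.1.0, Cufflinks 2.2.1 and DESeq2 1.2.8 with the dm6 genome (the methods credit the FPKM to DESeq2, though the table has the layout of Cufflinks). The counting program and annotation release are not given in the sources used here. The authors deposited FPKM values with confidence bounds, 1 set per group, and a DESeq2 table, of which the mean over the libraries of counts divided by size factors (a signal value) was used for depth. These means summed to 3.17e+07 over all genes. The other columns of that table (fold changes, standard errors, statistics and p-values) are the authors' own comparison and were not used. 10 genes whose FPKM estimate was not marked OK were left out.

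Receptors were matched by symbol in that table and joined on FlyBase ID. Ratios of FPKM were computed across all genes without a pseudocount; calls needed 1.5-fold, an FPKM of at least 1 in either group and separate bounds. Transcript lengths and coordinates came from Ensembl 115, on the same assembly, which 17138 gene IDs matched; the files' locus contained the annotated gene for 16941 of these. The length trend was a lowess fit (span 0.3) of the log2 ratio on log10 length (statsmodels 0.14.6, pandas 2.3.3, numpy 2.4.6, Python 3.11.15; figures with matplotlib 3.10.9). Call rule and trend were checked on made-up group values with known ratios. Alternatives were a pseudocount, other filters and folds, the median ratio, the length trend and TPM; the TPM alternative, and calls after centring or removing the trend, were chosen after seeing the data. Named pathway genes are those with the highest and the lowest ratio of each list, with Wnt5, wg and dsh; other genes named were chosen after their values were seen. The genes and lists were chosen with earlier results of these data known. The planned test across libraries (limma) could not be run, since the files hold values per group.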

Additional observations from a re-analysis of the deposited data

How the results depend on the processing

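No paired analysis was possible because the files hold 1 value per group, and leaving out a library was not run for the same reason. Relative to the transcript length trend the ratio was 0.580 for fz, 0.667 for fz2, 0.771 for arr and 0.763 for drl. It was 1.02 for fz4, 1.09 for otk and 5.42 for Drl-2. Called lower were then 2 receptors (fz and dnt), with 4.95% of the 8870 genes that had a trend value. Rescaled to TPM the ratio was 0.308 for fz, 0.329 for fz2, 0.334 for arr, 0.372 for dnt, 0.453 for drl, 0.526 for otk, 0.541 for fz4 and 0.596 for fz3; 8 receptors were called lower and 0 higher, with 23.96% and 4.34% of all genes. With a pseudocount of 1 FPKM the ratio of Drl-2 was 1.72, and those of the other 8 receptors moved by less than their error. A minimum FPKM of 10 left out Drl-2, so 0 receptors were called higher and 5 lower. Of the genes kept at that minimum 6.85% were called higher and 16.3% lower. At a fold of 2, 4 receptors (without drl) and 6.78% of all genes were called lower. On fold alone 22.0% of all genes were called lower and 19.5% higher, with the receptor calls as in the report. Without a filter, and after division by the median ratio, the calls of all 9 receptors were as in the report. The error of a ratio was taken from the bounds and covers no spread between libraries beyond what the authors' bounds hold. At the depth of Drl-2 the size of its ratio is loosely set.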
